A study of Caenorhabditis elegans with 6 samples.

Results

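The comparison described here is static spaceflight against ground control in a nematode strain labelled as a ced-1 mutant, across the miRNAs of Caenorhabditis elegans. It uses 2 of the 6 arrays of the series, 1 for each side, and the 154 probes whose name carries the worm prefix, each printed at 4 spots. The arrays are picked out by their sample names in the spot table and the probes by their names. Per the labels, each container held about 100000 dauer larvae, the arrested and hardy stage that worms enter under poor conditions. The flight group spent 16.5 days in orbit at 23 °C in a static slot, with gravity peaks of at most 0.01 g and a radiation dose of 1.92 mGy. It was collected 7 h after the end of the flight. The ground group sat in a static slot of the same hardware for the same time at the same temperature, starting 2 days later. Flight and ground thus differ in gravity, radiation, the journey and the start day at once, and these cannot be told apart in this comparison. From each sample 1 µg of total RNA was labelled with the dye Hy3.

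Both groups carry the same mutation as far as the labels go. The genotype is given as ced-1(n1995) I, an allele of the gene for an engulfment receptor that lets a cell take up its dying neighbours, and the strain characteristic as MT4930. Titles and source names give the strain as LS292 instead, a name better known for a worm with a lesion in the dystrophin gene dys-1, so the strain is called the mutant here. A miRNA array carries no probe for either gene, and the genotype could not be checked. With 1 array a side there is no test, no p-value and no replicate error; the 4 spots of a probe are repeats on 1 array and show technical spread only. The RNA came from whole animals, so fewer cells of a type and less miRNA per cell cannot be told apart.

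MicroRNAs are short RNAs that guide Argonaute proteins to partly matching sites in messenger RNAs and lower the output of those messages. Members of a family share the seed, the stretch near the 5′ end that does most of the pairing, and can act on the same targets. In the worm they time the passage between larval stages, hold the dauer state and set lifespan, and several are tied to single tissues such as body muscle, sensory neurons or the embryo.

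Intensity is given as foreground minus local background, in scanner units without scaling unless stated, and a probe's value is the median of its 4 spots. A probe was taken as detected when that median exceeded the 95th percentile of the 476 spike-control spots of its array, which was 97 on the static array and 150 on the ground array. Of the 154 worm probes, 52 were detected in static flight and 36 on the ground. Both arrays detected 28, the static array alone 24, the ground array alone 8, and neither 94. The probes closest to the static limit were miR-235-3p, miR-355 and miR-56-3p at 97.5 inside it and miR-1819-3p at 96.5 outside it. At the ground limit miR-245-3p, at 152, was inside and miR-791-3p, at 149, outside. The 94 undetected probes, among them all measured members of the miR-2, miR-86 and miR-232 families, are given no difference here.

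The 4 spots of a probe lay close together on the static array and far apart on the ground array. Over the detected worm probes, the SD of log2 spots had a median of 0.25 in static flight and 1.10 on the ground. The brightest spot exceeded the dimmest by over 4-fold, with spots below the limit set to it, for 1 of 52 probes in static flight and 20 of 36 on the ground. Pearson correlations between the 4 spot positions across these probes were 0.89 to 0.97 in static flight and 0.26 to 0.72 on the ground. The third mutant array, from the 1 g centrifuge in flight, gave 0.97 to 0.98 over 90 probes.

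The ground scatter had a place on the array. For each of the 48 print blocks, the probes without a name in the table that were detected on the array, 7 to 34 a block on the ground array, gave a median log2 ratio of spot to probe median. It was 0.5 or more in 8 blocks of the ground array, numbers 4, 8, 12, 16, 45, 46, 47 and 48, where it ran from 0.51 to 1.64. The other blocks ran from -1.08 to 0.46, and the static array ran from -0.54 to 0.53 over all its blocks. Blocks 24, 28, 32, 36 and 40 of the ground array, from -1.08 to -0.77, hold spots of the same probes as blocks 4, 8, 12, 16 and 48. The ratio is taken against the median of the probe's own spots, so by itself it does not show which of them are off. In block 4 of the ground array the spike-control median was 1235, against 41 to 117 in every other block and 66 in the same block of the static array. Of the 36 worm probes detected on the ground, 26 had a spot in these 8 blocks, and for 22 of them the brightest ground spot was there; on the static array the brightest spot of the same 26 was there for 11. These blocks are called bright blocks, and the miRNAs past 2-fold and the main families are given with and without their spots. Leaving them out on both arrays, a choice made after the pattern was seen, left 2 spots for 31 worm probes, 3 for 47 and 4 for 76. It moved the ground limit to 117 and left the static limit at 97. The scaling factor described next went from 1.61 to 1.39, so each value without the bright blocks carries the change of spots, of limit and of factor together.

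**Figure D1:**
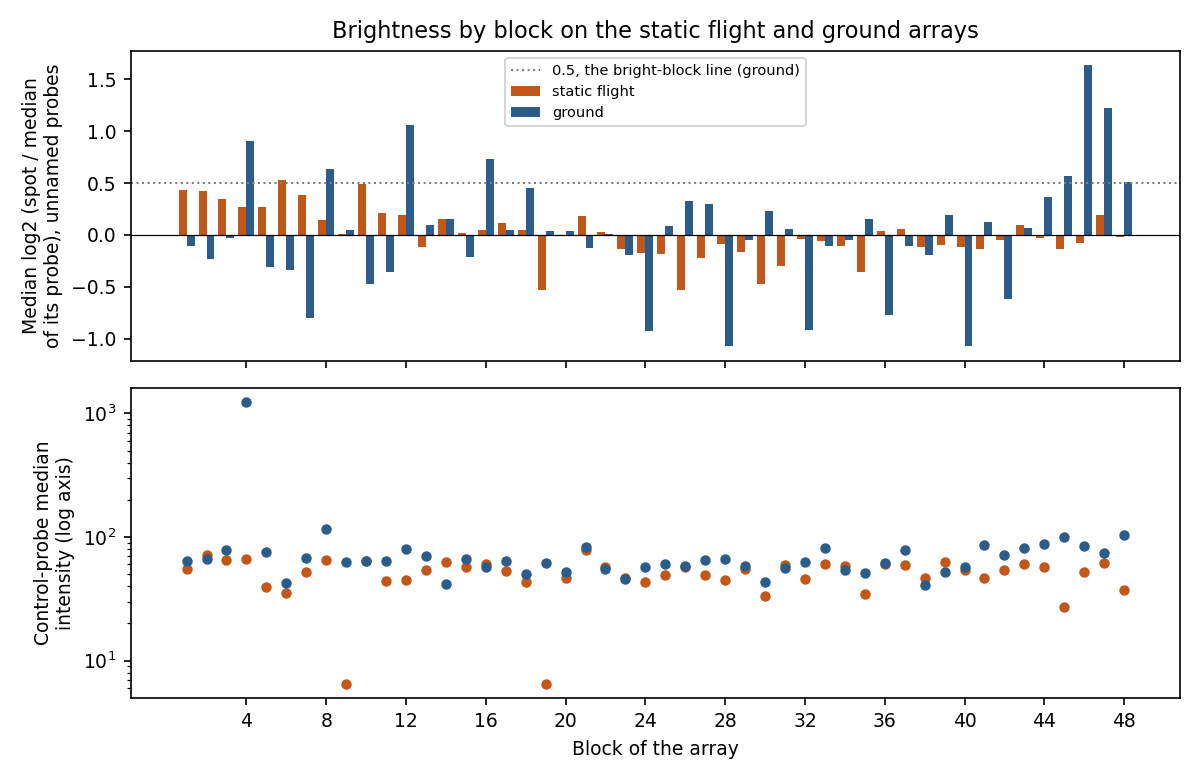
Brightness by print block (x axis, block number) on the static flight array (orange) and the ground array (blue). Top: median log2 ratio of a spot to the median of its probe, over detected probes without a name; bottom: median intensity of the spike-control spots on a log axis. On the ground array 8 blocks lie at 0.5 or above, and the control median of block 4 stands at 1235.

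Static values were multiplied by 1.61 to put them on the scale of the ground array, the ratio of the arrays' medians over the 8 worm probes that read 50 or more on all 6 arrays of the series. Of these 8, miR-1823 and miR-52-5p were under the limit on both arrays and enter each median by rank alone. The static median lay between miR-230-3p (217.5) and let-7-5p (322), and the ground median between miR-56-3p (292.5) and miR-55-3p (575). A side that was not detected was set to its limit, and the fold is then a lower bound. A miRNA detected on 1 array alone can therefore read higher only on that array, which holds for 24 miRNAs toward static flight and 8 toward ground. Of the 60 miRNAs detected on at least 1 array, 9 passed 2-fold upward in static flight (15%) and 7 downward (11.7%). The other 44 did not reach 2-fold. Those of them detected on 1 array alone have only a bound, and their true difference may be larger. The median log2 difference, static minus ground, was 0.22 over the 60 and 0.20 over the 28 detected on both. The 4 scaled static spots lay wholly above the 4 ground spots for 15 of the 60 (25%) and wholly below for 3 (5%). Spots were not set to the limit for this count. Over the 28 detected on both arrays it was 3 above and 2 below, so most of the 15 had an undetected ground side. Probes without a name, which are not called worm miRNAs in the table, give the background of the same array pair. Of 469 compared, 175 passed 2-fold upward (37.3%) and 30 downward (6.4%), and their spots lay apart upward for 228 (48.6%) and downward for 21 (4.48%). The share of worm miRNAs that read higher was thus below that of unnamed probes. Of the 469, 428 were detected in static flight, 192 on the ground and 151 on both, against 52, 36 and 28 of the 60 worm miRNAs. A larger share of the unnamed probes was therefore detected in static flight alone and could only read higher. How much of the gap comes from this was not tested. The split of 9 and 7 depends on the scaling: it was 5 and 13 unscaled, 4 and 20 with quantile normalization, and 8 and 11 with 75th percentile scaling or with unnamed probes centred on 0. It was 8 and 10 with detected worm probes centred on 0 and 12 and 6 with the authors' normalized intensity. With the bright blocks left out, 15 of 56 worm miRNAs read higher (26.8%) and 6 lower (10.7%), and spots lay apart upward for 23 (41.1%) and downward for 5 (8.93%). The median log2 difference over these 56 was 0.38. The 484 unnamed probes compared there gave 198 higher (40.9%) and 24 lower (4.96%), with spots apart upward for 290 (59.9%) and downward for 33 (6.82%).

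**Figure D2:**
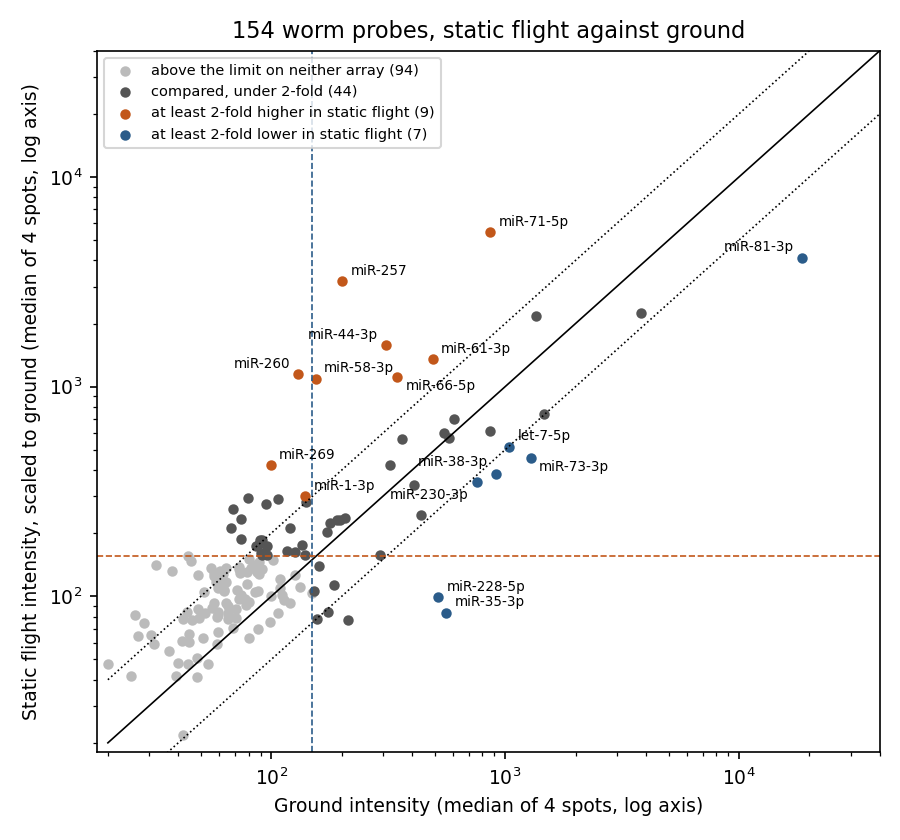
Static flight intensity, scaled to the ground array (y axis), against ground intensity (x axis), both on log axes, for the 154 worm probes as medians of 4 spots, with the line of equal values solid, 2-fold differences dotted and the detection limits dashed. The 9 orange points (miR-257 and miR-71-5p among them) read at least 2-fold higher and the 7 blue ones (miR-81-3p among them) lower, while dark and grey points outside the dotted lines have a side under its limit and do not reach 2-fold as a bound; 1 probe with a ground value of 12.5 is drawn at 20.

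Among the miRNAs that read higher in static flight, miR-71-5p promotes long life and survival of arrested larvae. Its static spots were 3067, 3091, 3684 and 4322 and its ground spots 612, 660, 1062 and 1455. The groups of spots did not overlap, with or without scaling. The log2 difference was 2.66 (technical SE 0.32), and 2.45 without the bright blocks, where this probe has no spot. miR-257, a miRNA found by prediction and cloning without a known role, read 1051, 1937, 2024 and 2136 in static flight against 163, 176, 226 and 242 on the ground. The lowest static spot was over the highest ground spot before any scaling. Its difference was 3.99 (technical SE 0.28) and 3.94 without the bright blocks. Of these 2 miRNAs, miR-257 is itself 1 of the 8 scaling probes.

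miR-58-3p is a founding member of the worm's bantam-related family, which acts on growth and on TGF-beta signalling. It read 536, 652, 706 and 716 in static flight against 101, 142, 168 and 836 on the ground. The single high ground spot, 836, lay in bright block 46; once scaled, the static spots were above all 4. The difference was 2.82 (technical SE 0.61) and 2.68 (technical SE 0.19) without the bright blocks. miR-260, another predicted miRNA, read 565, 580, 847 and 940 against 58, 128, 133 and 929, and the high ground spot lay in bright block 4. Its ground median of 130.5 was under the limit, so static flight was at least 7.65-fold higher, and at least 6.79-fold without the bright blocks.

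miR-44-3p and miR-45-3p, the products of 2 genes, share a probe that read 927, 941, 1023 and 1166 in static flight and 207, 293, 326 and 4186 on the ground. Again 1 ground spot stood above all others, in bright block 45, and the groups overlapped only through it. The difference was 2.35 (technical SE 1.00) and 2.16 (technical SE 0.20) without the bright blocks. miR-61-3p, of the same family and known as a target of LIN-12/Notch signalling in vulval cells, read 52, 804, 875 and 973 against 122, 470, 510 and 7209. Its difference of 1.46 (technical SE 1.43) stayed at 1.37 (technical SE 1.27) without the bright blocks. Here the spots overlapped both ways, because 1 static spot was low and 1 ground spot high.

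miR-66-5p, from a cluster of related miRNAs with miR-64 and miR-65, read 637, 689, 692 and 1154 in static flight. On the ground it read 211, 315, 377 and 2606, the last in bright block 46. The difference was 1.68 (technical SE 0.83), and without the bright blocks 1.61 (technical SE 0.35) with the spots apart. miR-269, a predicted miRNA, read 181, 250, 274 and 279 against 63, 79, 120 and 160, with no overlap and no spot in a bright block. Its ground median was under the limit, so static flight was at least 2.81-fold higher, and at least 3.11-fold without the bright blocks. miR-1-3p, the conserved miRNA of body muscle, read 149, 164, 210 and 216 against -3, 103, 177 and 5033. It was at least 2.00-fold higher, just at the line, with a technical SE of 1.26. Of the 15 alternatives that gave it a value, 5 kept it past 2-fold higher, 9 put it under 2-fold and 1 reversed it. Its lowest and highest ground spots were both in bright blocks, and without those blocks its difference was 1.08 from 2 spots (technical SE 0.30). Averaging the 4 spots instead of taking their median gave -1.74.

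**Figure D3:**
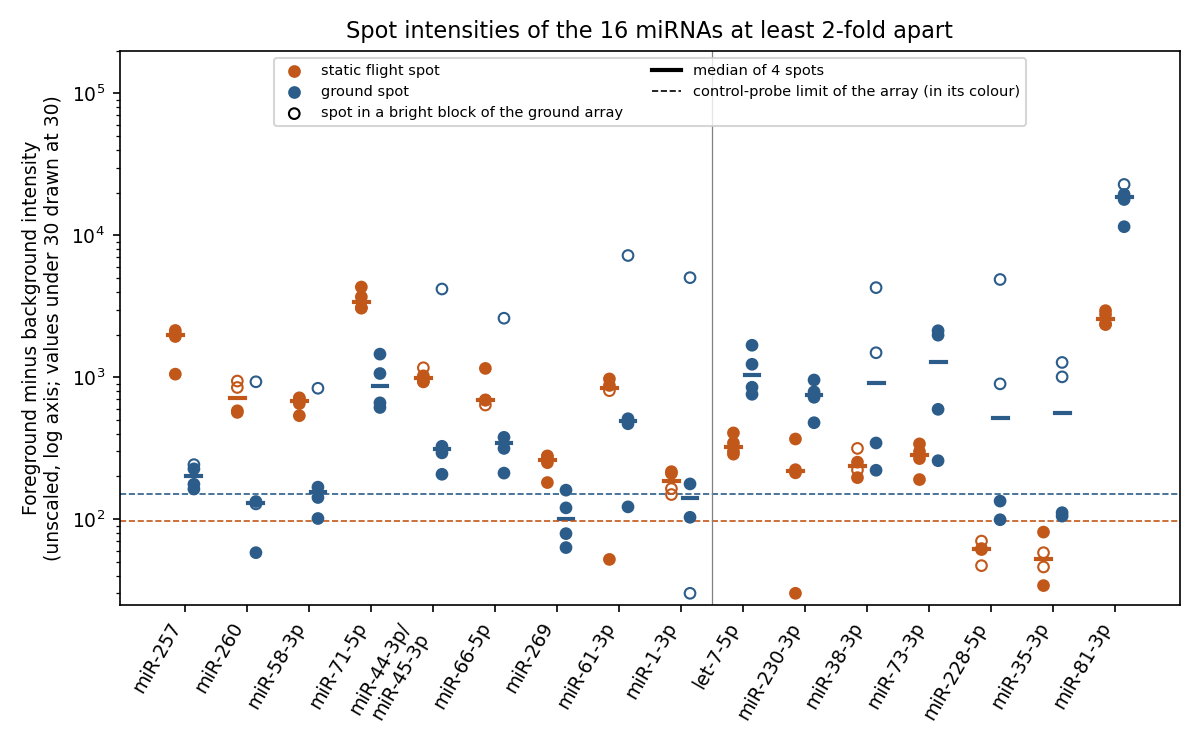
Unscaled intensity (log axis) of every spot of the 16 miRNAs that differed at least 2-fold, static flight in orange and ground in blue; bars are medians of 4 spots, open circles are spots in the bright blocks, dashed lines the detection limits, and spots under 30 are drawn at 30. To the left of the grey line are the 9 that read higher in static flight and to the right the 7 that read lower. The highest ground spot is a filled circle for miR-71-5p, miR-269, miR-73-3p, miR-230-3p and let-7-5p and an open circle, in a bright block, for all others.

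On the other side, miR-81-3p, of the same bantam-related family as miR-58, read lower in static flight. Its static spots were 2351, 2371, 2765 and 2946 and its ground spots 11504, 17886, 19429 and 22836. The 4 static spots lay below the 4 ground spots by a wide margin, in bright and other blocks alike. The log2 difference was -2.18 (technical SE 0.23) and -2.22 without the bright blocks. let-7-5p, which drives the passage from larval to adult fates, read 287, 300, 344 and 405 against 758, 850, 1234 and 1680. No spot overlapped and none lay in a bright block, and the difference of -1.01 (technical SE 0.28) was just past 2-fold. It was -1.22 without the bright blocks, but under 2-fold in 6 of 16 alternatives, among them the mean of the spots (-0.65) and the authors' normalized intensity (-0.91). It is 1 of the 8 scaling probes, as is miR-230-3p, and their static values set the static median used for scaling.

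miR-230-3p read 1, 212, 223 and 367 in static flight against 478, 722, 789 and 956 on the ground, a difference of -1.11 (technical SE 0.45) and -1.32 without the bright blocks. Its unscaled spots were apart, and its scaled spots overlapped through the highest static spot. miR-73-3p, a relative of the conserved miR-31, read 190, 267, 299 and 339 against 258, 594, 1979 and 2127. Its ground spots spanned a wide range outside the bright blocks, and the difference of -1.50 had a technical SE of 0.75. It was -1.71 without the bright blocks.

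miR-253-3p was the remaining miRNA with spots apart downward, at 33, 39, 57 and 82 against 144, 202, 222 and 304. It was undetected in static flight, and its bound of -0.44 did not reach 2-fold.

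The other 3 lower readings rested on the bright blocks. miR-35-3p, which acts in the embryo and the germline, was undetected in static flight at 34, 46, 58 and 81. Its ground spots were 1271 and 1006 in bright blocks 12 and 48 but 105 and 111 in the other blocks. The value at least 3.58-fold lower in static flight came from that median, and outside the bright blocks neither array detected it. miR-228-5p, known for expression in glia, read 47, 61, 62 and 70 in static flight. On the ground it read 898 and 4885 in bright blocks 4 and 16 against 99 and 134 elsewhere. It went from at least 3.31-fold lower to undetected on both arrays without those blocks. miR-38-3p, a cluster mate of miR-35, read 196, 222, 252 and 315 in static flight. Its ground spots were 4281 and 1488 in bright blocks 12 and 48 and 221 and 344 elsewhere. Its difference turned from -1.27 (technical SE 0.99) to 0.14 (technical SE 0.37).

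Leaving out the bright blocks kept all 9 higher readings and 4 of the 7 lower ones past 2-fold. It also brought 8 miRNAs past the line. The blocks were chosen by high spots of the ground array alone, and block 6 of the static array, at 0.53, was kept. Leaving them out can therefore raise a difference, and that the 9 stayed higher is no separate support for them. miR-34-5p, which responds to DNA damage and supports development under stress, read 135, 170, 171 and 173 in static flight against 74, 91, 99 and 100 on the ground. Those spots never overlapped and lay outside the bright blocks. Its bound moved only through the ground limit, from 150 to 117, and the scaling factor, from 1.61 to 1.39: static flight was at least 1.83-fold higher with all blocks and at least 2.02-fold without. miR-72-5p and miR-353, also without a spot in a bright block, went from at least 1.95-fold and 1.96-fold to at least 2.15-fold and 2.17-fold higher. miR-788-5p went from 0.39 to 1.52 on the log2 scale, its ground spots being 1370 and 498 in bright blocks and 97 and 147 elsewhere. miR-85-3p went from 0.13 to 1.02 (technical SE 1.21).

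For miR-65-5p the sign turned, from -0.49 to 1.17 (technical SE 1.53). Its ground spots were 124, 221, 1509 and 3733, and the last, in block 44, was kept. Among the lower readings miR-82-3p went from -0.76 to -1.17, with 17362 and 1351 in bright blocks and 3722 and 3923 elsewhere. miR-84-5p, of the let-7 family, went from -0.99, just short of the line, to -1.10.

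**Figure D4:**
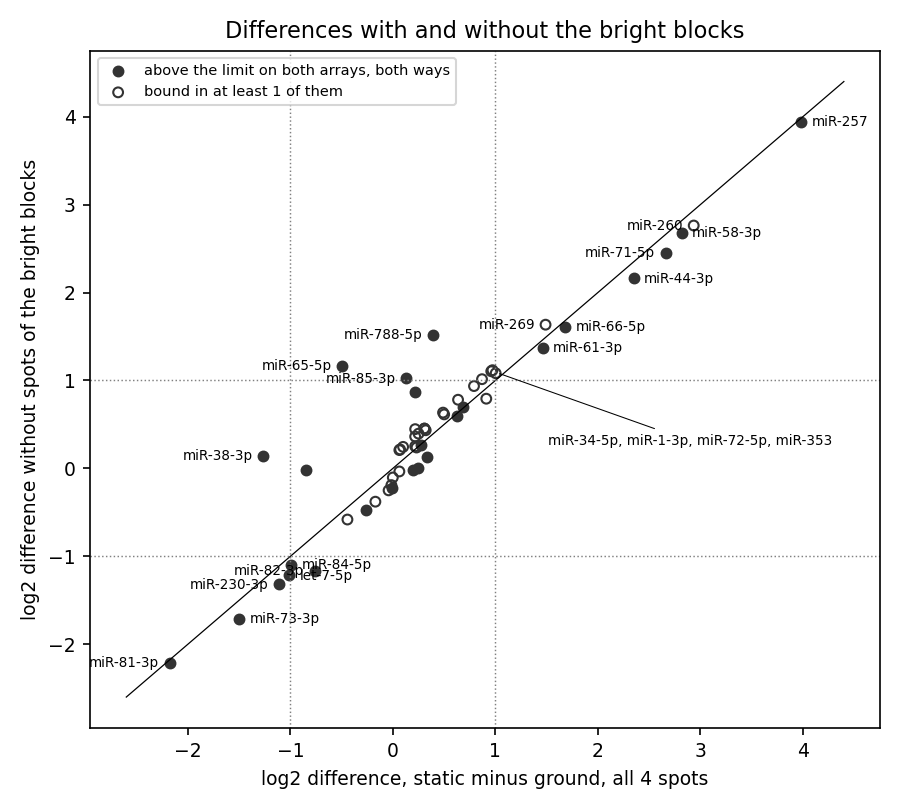
Log2 difference, static flight minus ground, with all 4 spots (x axis) and without the spots of the bright blocks (y axis), for the miRNAs compared both ways; open symbols are bounds and dotted lines mark 2-fold. The differences of miR-38-3p, miR-65-5p and miR-788-5p are higher without those spots, and that of miR-82-3p is lower.

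Members of 1 family did not all differ in 1 direction. In the bantam-related family 4 of 5 probes were compared, with 1 higher (miR-58-3p), 1 lower (miR-81-3p) and a median log2 difference of -0.27. Without the bright blocks 1 was higher, 2 were lower (miR-81-3p and miR-82-3p) and the median was -0.15. Families were listed by gene name, so the probe not compared, miR-80-5p, is for the other arm of the miR-80 precursor RNA. miR-82-3p stood at -0.76 and miR-80-3p, tied to the response to dietary restriction, at 0.21 (0.87 without the bright blocks). Probes of near-identical family members can take up each other's miRNA, and how far they did so here was not tested.

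The let-7 family, which with lin-4 times larval development, had 6 of 7 probes compared, none higher, 1 lower and a median of 0.03. Without the bright blocks 2 were lower, let-7-5p and miR-84-5p, and the median was 0.01. Its members ran from let-7-5p at -1.01 and miR-84-5p at -0.99 to miR-48-5p at 0.69 (technical SE 0.94) and miR-793. That last one was at least 1.73-fold higher with its spots apart, at 129, 149, 174 and 211 against 56, 65, 72 and 99. miR-48-5p read 1104, 1269, 1438 and 1621 against 623, 1090, 1613 and 12112, and its highest ground spot was in bright block 46. lin-4-5p, the repressor of lin-14, read 133, 160, 191 and 237 against 81, 81, 201 and 267, with overlapping spots and a bound of 1.88-fold higher. Its relative miR-237-5p was undetected on both arrays.

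The miR-35 family had 4 of 8 probes compared, 2 of them lower, and a median of -0.72. Without the bright blocks 3 were compared, none past 2-fold, with a median of 0.14. The miR-51 family, relatives of miR-100 needed for embryonic development, had 3 of 7 probes compared and none past 2-fold. Of those compared, miR-56-3p stood at -0.90 and was undetected on both arrays without the bright blocks. The 7 also count miR-56-5p, from the other arm of the same precursor RNA, which neither array detected. In the miR-44 family both compared probes were higher (median 1.91, and 1.77 without the bright blocks). The family of miR-63 to miR-66 and miR-229 had 1 of 4 compared probes higher and a median of 0.19. Without the bright blocks 2 of 5 were higher, miR-65-5p and miR-66-5p, and the median was 0.78. Over all 56 miRNAs compared in that setting the median was 0.38 and 26.8% read higher. miR-63-3p, in this last group, was at least 1.55-fold higher with its spots apart.

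In the miR-72 family miR-73-3p was lower, miR-74-3p stood at 0.28 and miR-72-5p was at least 1.95-fold higher. miR-50-5p stood at 0.33 and its relative miR-90-3p at 0.63, and the pair of miR-46-3p and miR-47-3p stood at 0.19 and 0.22. miR-75, miR-83, of the gonad-shaping miR-49 family, and miR-238, whose loss shortens life, gave only bounds, none at 2-fold. The list of ageing, starvation and stress miRNAs had 5 of 8 probes compared, with 1 higher (miR-71-5p) and 1 lower (miR-228-5p), and a median of 0.14. Without the bright blocks 3 were compared, 2 of them higher (miR-71-5p and miR-34-5p) and none lower. The median of these 3 was 1.01, against 0.38 over all 56 miRNAs compared in that setting. The list's other compared members were miR-34-5p, miR-238-3p and miR-235-3p, the last known for holding the arrest of starved larvae. The predicted miRNAs numbered miR-256 to miR-269 had 13 probes, of which 3 were detected in static flight and 1, miR-257, on the ground. miR-260 and miR-269 entered the comparison through static flight alone and could not read lower. Of the late-discovered miRNAs, 7 of 38 probes numbered miR-784 or above were compared and none passed 2-fold, although miR-788-5p did without the bright blocks.

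The neuron markers were near or under the limit. Of the 4 neuron miRNAs, miR-124-3p and lsy-6, which sets the left and right identity of a pair of taste neurons, were detected in static flight at 101 and 109.5. None of the 4 was detected on the ground, and both differences were bounds under 2-fold. The ground spots of lsy-6 were 73, 105, 165 and 1141, with the highest in bright block 4. miR-791-3p and miR-273 were undetected on both arrays. The dauer-related markers miR-71-5p and miR-34-5p were both detected in static flight, and miR-34-5p was not on the ground.

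Genes that lie side by side and may be transcribed together were read from the WBcel235 gene table, used for names, order and spacing only. For 139 of the 154 probes it holds a gene symbol. Within 1000 bases of each other, 3 groups had at least 2 compared members. In the group of mir-35 to mir-41 the differences of miR-35-3p, miR-37-3p, miR-38-3p and miR-39-3p had both signs. Without the bright blocks no compared member reached 2-fold, and miR-37-3p and miR-39-3p gave only bounds. Next to mir-229, miR-64-5p read -0.26, miR-65-5p -0.49 and miR-66-5p 1.68. Without the bright blocks they read -0.47, 1.17 and 1.61, so miR-65-5p and miR-66-5p were then both past 2-fold upward. For mir-73 and mir-74 the values were -1.50 and 0.28, and -1.71 and 0.26 without the bright blocks. The technical SE of a miRNA detected on both arrays had a median of 0.64 with all blocks and 0.35 without the bright ones.

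The same contrast in the wild type N2, on arrays of another table with dimmer worm probes, could be set beside 6 of the 16 miRNAs. Of these, miR-81-3p differed at least 2-fold and read lower in static flight (-2.20 against -2.18 in the mutant). Its N2 spots overlapped, at -109, -5, 62 and 194 in static flight and -1403, 107, 196 and 440 on the ground. miR-257 gave 0.82 in N2 and 3.99 in the mutant, with N2 spots of 213, 478, 532 and 540 in static flight and 20, 210, 453 and 1584 on the ground. let-7-5p gave 0.11 in N2 against -1.01, and miR-230-3p 0.43 against -1.11. Neither reached 2-fold in N2, and the N2 spots of both overlapped. For let-7-5p they were 234, 318, 368 and 488 in static flight and -1789, 243, 491 and 826 on the ground. For miR-230-3p they were 131, 195, 203 and 555 against -548, 165, 176 and 265. miR-38-3p gave -0.11 against -1.27, and miR-73-3p a bound of -0.76 against -1.50. miR-71-5p, miR-58-3p and miR-260 were undetected on both N2 arrays. Whether the strains differ was not tested.

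**Figure D5:**
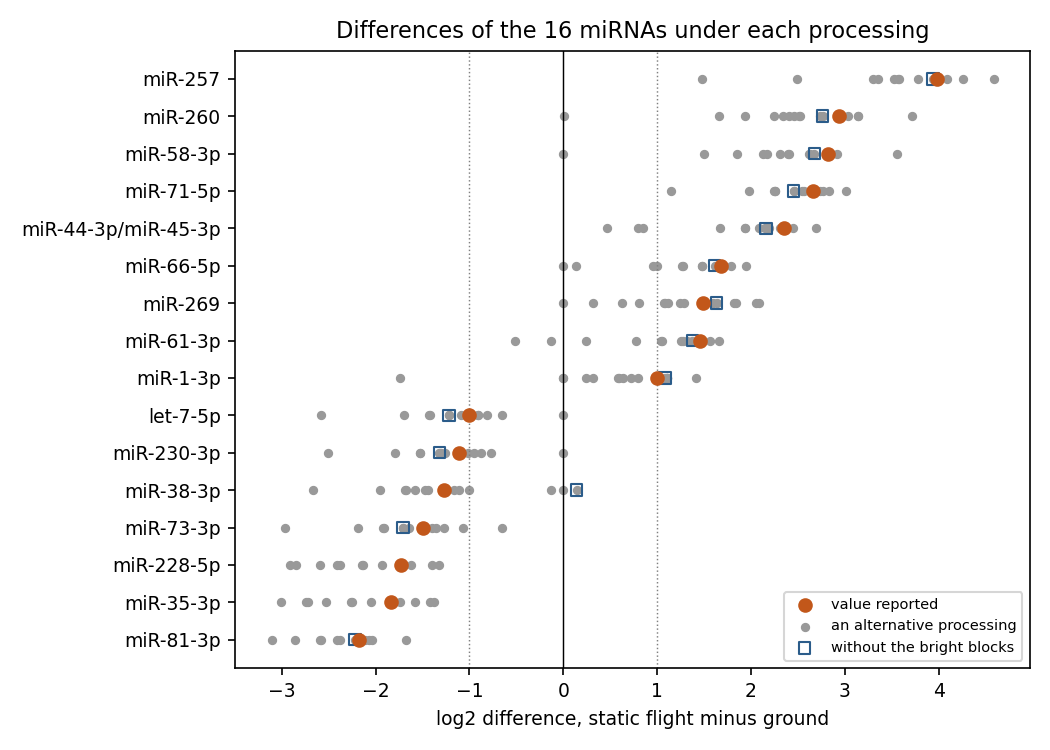
Log2 difference, static flight minus ground (x axis), of the 16 miRNAs under each way of processing: the value reported (orange), the value without the bright blocks (open square) and every other alternative (grey). miR-257, miR-71-5p and miR-81-3p stay beyond 2-fold throughout; miR-35-3p and miR-228-5p have no square because neither array detected them outside the bright blocks.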

How the data were processed

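One-colour arrays of Hy3-labelled RNA were read from the spot table. The deposited table holds spot intensity with and without local background subtracted, per the file headers. The authors' table per probe equals the median of the spots on 2314 of 2314 probes of both arrays (tolerance 0.01), and their normalized intensity is that value divided by 116.5 (static) and 201 (ground). A value table of the series was not used, because its columns carry other labels than the spot table, and 30 deposited value columns in all were left out.

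Medians of 4 spots, the control-probe limit, scaling on 8 probes and bounds are as described above, computed with Python 3.11.15 and pandas 2.3.3. Background correction by normexp (offset 50) used limma 3.58.1 in R 4.3.3. The technical SE comes from log2 spots set to the limit where lower. The comparison code was tested on simulated data with the same small spot scatter on both arrays and no bright blocks. That test does not cover calls made under the scatter of the ground array. Eligible to be named were the 10 brightest miRNAs of each array, all those past 2-fold, members of the lists, and those near a threshold. The members, lists and rules were chosen with earlier results of these data known. No sequence is printed, and coordinates were not used beyond gene order and the distance of 1000 bases. The number of arrays, 1 a side, limits the precision.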

Additional observations from a re-analysis of the deposited data

Results flagged for a closer look

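Signal was also present outside the worm probes. Of 2147 probes with 4 spots and no name in the table, 428 exceeded the control-probe limit on the static array and 192 on the ground array, against 52 and 36 of the 154 worm probes. The brightest unnamed probe read 15061.5 in static flight and 28020 on the ground. The spike-control median of 1235 in block 4 of the ground array lay far above that of all other blocks, and its cause was not tested.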

How the results depend on the processing

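No paired analysis was possible because each side has 1 array. Each of the 60 compared miRNAs was recomputed under 12 alternatives set out with the design and 4 added after the data were seen; the last are the omission of the bright blocks, the omission of the brightest spot of each probe, a control limit from outside the bright blocks, and centring on unnamed probes. The 9 higher readings became 5 unscaled, 4 with quantile normalization, 14 with the control-probe median subtracted or the limit from outside the bright blocks, 2 with a 99th percentile limit, 36 with a limit of 50 and 15 without the bright blocks. The 7 lower ones became 11 with the mean of the spots, 75th percentile scaling or unnamed probes centred, 13 unscaled, 20 with quantile normalization, 4 without background subtraction, 2 with a 99th percentile limit and 3 without the brightest spots. The median difference of 0.22 moved to -0.47 with quantile normalization. The 18 miRNAs with spots apart became 28 with a limit of 50, 5 with detection on both arrays and 28 without the bright blocks.

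miR-257, miR-71-5p and miR-81-3p were past 2-fold in the same direction under all 16 alternatives, running from 1.48 to 4.59, from 1.14 to 3.01 and from -3.11 to -1.67. Not all of the 16 could change them. A limit of 50, detection on both arrays and the limit from outside the bright blocks returned their reported values, because both arrays detected them. Alternatives that change the scaling factor alone shift every miRNA detected on both arrays by the same amount. Directions turned for miR-1-3p (-1.74) and miR-61-3p (-0.51) with the mean of the spots, for miR-61-3p with quantile normalization (-0.13) and for miR-38-3p without the bright blocks (0.14). miR-35-3p and miR-228-5p stayed lower under the 12 alternatives that gave them a value and had none under the other 4. The 99th percentile limit of the ground array was 1144 and left 41 miRNAs to compare.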
